A study of Gallus gallus with 6 samples.

Results

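The liver of juvenile hens was described on its own, from the 3 libraries labelled L20 among the 6 libraries of the series. These libraries came from 3 hens of the Lushi chicken (in the methods the Lushi green shell chicken), a Chinese domestic breed of layers, all female and 20 weeks old, caged with free access to feed, with 1 library of liver RNA per hen, no pooling and no treatment named in the labels. The other 3 libraries (L30) came from laying hens of the same breed at 30 weeks, and they were used here only to see how far the genes that varied most among juvenile hens also varied in another set of hens. Members were taken by label alone, as the samples titled L20-1, L20-2 and L20-3, called hens 1, 2 and 3 below. Where values of the 3 hens follow each other, they stand in the order of hens 1, 2 and 3.

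The liver of a hen makes most of the proteins of blood plasma, such as albumin, fibrinogen, transferrin and the apolipoproteins that carry fat. It is also the main site of fatty acid synthesis in birds, it releases glucose and ketone bodies in fasting, and it turns waste nitrogen into uric acid. With inflammation, hepatocytes raise the output of acute phase proteins and lower that of others such as albumin, and with the onset of lay, estrogen turns on the yolk precursors, among them vitellogenins and apovitellenin-1. In a pullet before lay these yolk genes are still low against their level in lay.

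Expression was deposited for 14078 genes as FPKM, fragments per kilobase of transcript with a scaling per library, and as a scaled count. Median-ratio factors of the deposited FPKM, which compare the typical nuclear gene among hens, were 0.989, 1.01 and 1.01. The typical gene was thus already nearly level among the hens. Whole reads were recovered from the scaled counts and came to 14432548, 21446473 and 17102646 per hen. Of 14061 nuclear genes, 12699 were above 0 in all 3 hens, and 5728 (40.7%) had a mean of at least 5 FPKM, the level from which spread among hens was described. The gene just outside that level was PTPRA, at a mean of 4.9993 FPKM, and the gene just inside was INPP5D, at 5.0001 FPKM. Hepatocyte markers were abundant, and the 10 of them took 24.6%, 24.9% and 24.3% of counts. Markers of exocrine pancreas took at most 0.0142% of counts and those of muscle at most 0.0026%. The 6 measured markers of oviduct and ovary took 0.697%, 0.715% and 0.829%, with a summed level of 2688, 3280.3 and 3695 FPKM. Most of this sum was 1 gene, ENSGALG00000003512, described as a Kazal type serine peptidase inhibitor, with 2625, 3279 and 3449 FPKM. Avidin (AVD) was also above 5 FPKM, and the other 4 were not. Among those 4, CYP19A1, the estrogen-forming enzyme of the ovary, was at 0 in all hens.

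Secreted plasma proteins dominated the counts. Coagulation factors, plasma carriers with protease inhibitors, acute phase proteins, complement, apolipoproteins and yolk carriers, 108 genes in all, took 37.3%, 42.0% and 39.2% of each hen's counts (mean 39.5% ± 2.37, SD, n = 3). The 20 nuclear genes with most counts took 37.2% ± 3.64 (SD, n = 3), and the 100 with most counts took 50.2% ± 3.09 (SD, n = 3). Coagulation factors alone took 15.6% ± 2.47 (SD, n = 3) of counts, most of it through the 3 fibrinogen chains with 10.6%, 15.6% and 14.3%. Plasma carriers and protease inhibitors took 14.4% ± 1.33 (SD, n = 3), and albumin alone took 8.70%, 2.86% and 5.10%. Albumin therefore took about 3 times as large a share of counts in hen 1 as in hen 2, while fibrinogen took its largest share in hen 2.

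Acute phase proteins, which rise in the blood with inflammation, took 3.08%, 6.38% and 3.88% of counts, so that hen 2 stood above the other hens. Endoplasmic reticulum (ER) chaperones, which fold secreted proteins, took 1.46%, 3.31% and 2.11%. Heat shock proteins of the cytosol and mitochondria took 0.512%, 1.69% and 0.791%. These classes had their largest share in hen 2. Some classes of metabolism went the other way, with apolipoproteins at 2.55%, 1.40% and 2.51%, fatty acid oxidation and ketogenesis at 1.29%, 0.697% and 1.23%, and cytochrome P450 and conjugation enzymes at 0.758%, 0.286% and 0.578%. Fatty acid and triglyceride synthesis did not, with 0.770%, 0.727% and 0.659%, lowest in hen 3. Complement and lectins hardly differed among the hens (2.83% ± 0.0792, SD, n = 3), and the same was true of translation factors (1.11% ± 0.0423, SD, n = 3) and ribosomal proteins (1.22% ± 0.0893, SD, n = 3). Yolk precursors and estrogen-induced carriers took 0.0360%, 0.0058% and 0.0299% of counts, and haemoglobins and erythroid genes took 0.0081%, 0.0132% and 0.0043%.

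**Figure D1:**
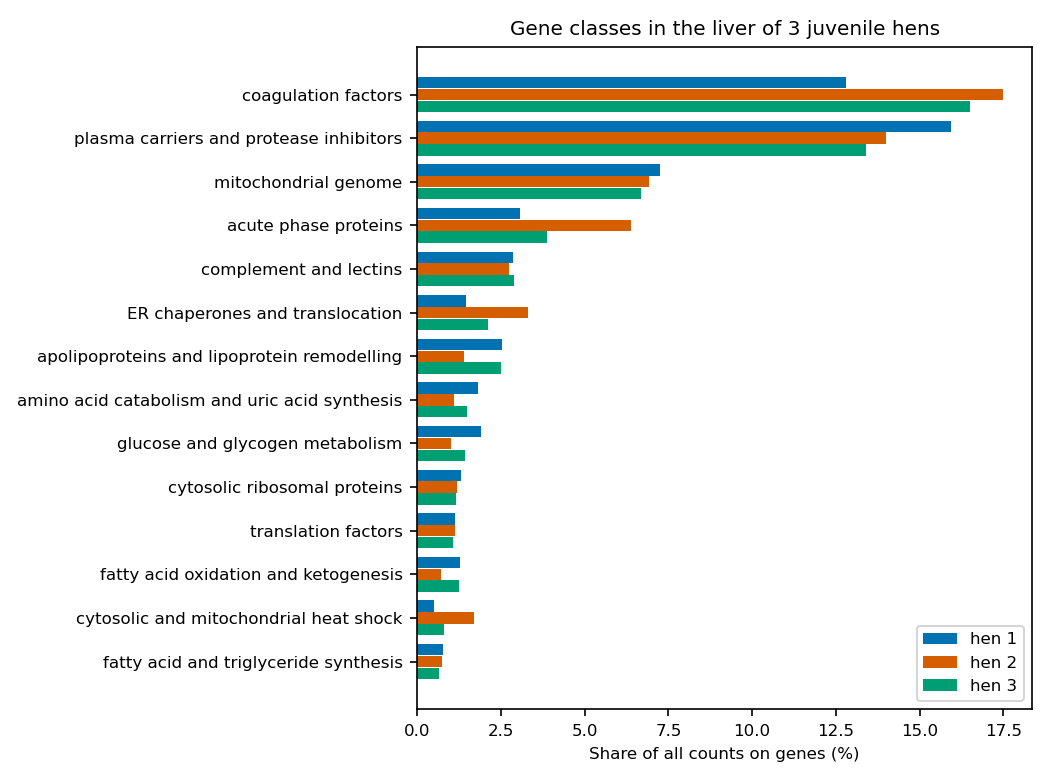
Share of each hen's counts, in percent, on 14 gene classes of the liver of 3 juvenile hens, with 1 bar per hen. Coagulation factors ran from 12.8% in hen 1 to 17.5% in hen 2, and acute phase proteins and ER chaperones were largest in hen 2.

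Genes of the mitochondrial genome, which encode subunits of the respiratory chain and the ribosomal RNAs of the organelle, took 6.96% ± 0.289 of counts (SD, n = 3), with 7.26%, 6.93% and 6.69%. The most reads fell on MT-CO1, the catalytic subunit of cytochrome c oxidase, with 14313, 15800.5 and 15991 FPKM. MT-CYB, cytochrome b of complex III, had 4998, 5438 and 4851 FPKM. MT-ND5 of complex I had 3298, 3239 and 3174 FPKM. In each of these genes the hens lay close together, and they had the smallest CVs of the mitochondrial genes. Others spread more, such as MT-ND2 with a CV of 0.176 and the unnamed ENSGALG00000018386 with 0.244. The unnamed mitochondrial feature ENSGALG00000018375 had 224680.0, 33366 and 42842 FPKM on only 5, 1 and 1 reads, and its level cannot be read as abundance.

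Among nuclear genes the highest mean FPKM belonged to FGB, the fibrinogen beta chain, with 11457, 19489 and 15984 FPKM. FGA, the alpha chain, had 6725, 10542 and 9035 FPKM. FGG, the gamma chain, had 5639, 9018 and 7717 FPKM. All 3 chains had the same order of hens, lowest in hen 1 and highest in hen 2, and their genes lie side by side on chromosome 4 of galGal4, from FGB at 19781103-19787443 to FGG at 19803832-19811032. Serum amyloid A, an acute phase apolipoprotein, came second by mean FPKM with 2393, 37656 and 6661 FPKM. It stands in the table under the name HPS5 with the description of serum amyloid A, on chromosome 5 at 11860237-11871121, a locus given with the same bounds for SAAL1. In hen 2 it was 5.65-fold above the next hen.

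The next ranks held further plasma proteins. Hemopexin (HPX), which binds free haem, had 9306, 15967 and 17201 FPKM and was lowest in hen 1. Orosomucoid, an acute phase carrier of small molecules named OGCHI in the table, had 8539, 16053 and 11511 FPKM. Both were well below their highest level in hen 1. PIT 54, the haemoglobin-binding protein that birds have in place of haptoglobin, had 4543, 8293 and 6208 FPKM. Ovotransferrin, the iron carrier of chicken plasma and egg white that the table names LTF, had 7162, 14476 and 7467 FPKM, nearly equal in hens 1 and 3 and 1.94-fold higher in hen 2. Albumin (ALB) had the reverse order of fibrinogen, with 11148, 4259.6 and 6732 FPKM. APOA1, the main protein of high density lipoprotein, had 7810.4, 5300.4 and 9762 FPKM and was lowest in hen 2. SERPINA3, a protease inhibitor that is also an acute phase protein in mammals, had 1217, 9138 and 3240.0 FPKM, a range of 7.51-fold.

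The rest of the top 20 held genes of several functions. The beta-defensin GAL9 had 5821, 3268 and 5189.8 FPKM. Ferritin heavy chain (FTH), which stores iron, had 3001, 5126 and 3988 FPKM. The metallothionein MT4, which binds zinc and copper, had 1435, 3439.6 and 2564 FPKM. Defensin was lowest in hen 2, and both metal-binding proteins were highest there. LFABP, a cytosolic fatty acid carrier, had 2339, 2591 and 4602 FPKM and was highest in hen 3. FABP1, described in the table as the liver basic form of such a carrier, had 4765, 1153 and 2047 FPKM and was highest in hen 1. Vitronectin (VTN), a plasma adhesion protein, had 2609, 2845 and 2898 FPKM. Complement C3, the central complement protein (C3D in the table), had 2074, 2519.7 and 2448 FPKM. VTN and C3D had the smallest CVs of the 20 genes, 0.0553 and 0.102. ENSGALG00000003512, described as a Kazal type serine peptidase inhibitor, had 2625, 3279 and 3449 FPKM. ENSGALG00000026592, with no name or description, reached 2869 FPKM on a mean of only 95.3 reads, at a locus on chromosome 1 that runs from 100373555 to 100373705.

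**Figure D2:**
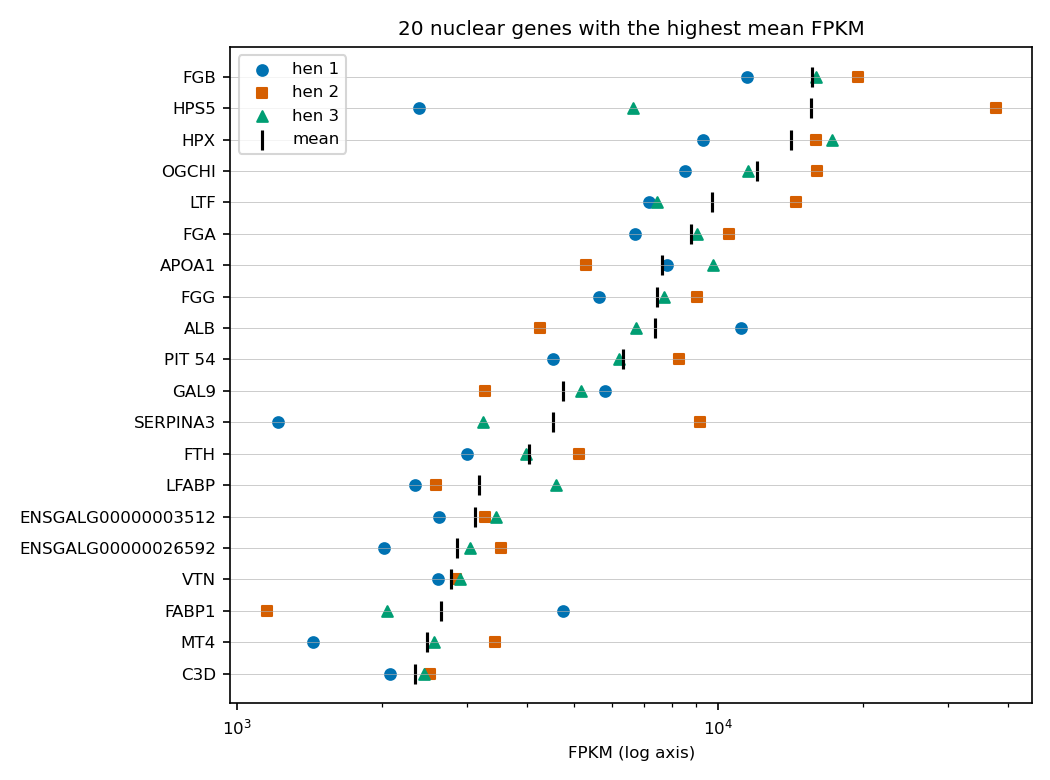
FPKM on a log axis of the 20 nuclear genes with the highest mean FPKM in juvenile liver, with 1 marker per hen and a bar at the mean. HPS5 (serum amyloid A) ran from 2393 to 37656 FPKM, while VTN and C3D lay close together in all 3 hens.

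Spread among hens was measured as the coefficient of variation (CV), the SD of FPKM over its mean with n = 3. The median CV over the 5728 genes was 0.145, with 5% of genes under 0.0344 and 5% over 0.534. Counting of reads alone would give a median CV of 0.0385. A CV of 0.5 or more was found for 350 genes (6.11%), and a CV under 0.1 for 1842 genes (32.2%). The 131 genes with at least 10000 reads per hen on average had a median CV of 0.273, so the most abundant genes were not the steadiest.

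Each hen was highest in some genes, but not equally often. Hen 2 was highest in 2437 of the 5728 genes (42.5%), hen 3 in 1773 (31%) and hen 1 in 1518 (26.5%). Hen 1 was lowest in 40.1% of genes, hen 2 in 34.6% and hen 3 in 25.2%. Hen 2 was at least 2-fold above both other hens in 1.76% of genes, hen 3 in 62 genes (1.08%) and hen 1 in 43 (0.751%). At the low end, 145 genes (2.53%) in hen 2, 77 (1.34%) in hen 1 and 32 (0.559%) in hen 3 were at most 0.5 times both other hens. Hen 2 therefore stood apart most often, in both directions. Across genes, hens 1 and 3 agreed best, with a Pearson r of 0.90 and a Spearman rho of 0.91 for log2(FPKM + 1), against r of 0.87 for hens 1 and 2 and 0.88 for hens 2 and 3. These correlations run across genes, which are not replicates. The common biological CV, the estimate by edgeR 4.0.16 of spread beyond read counting, was 0.257, and it was 0.196 without hen 2. Without hen 2 the median CV was 0.0930 in place of 0.145, and 202 genes in place of 350 had a CV of 0.5 or more. These values rest on 2 hens, and the median CV fell whichever hen was left out. It ran from 0.0930 to 0.137, with 202 to 471 genes at a CV of 0.5 or more. The whole drop is therefore not a measure of hen 2.

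These counts depend in part on the scaling. Median-ratio scaling, which levels the typical gene among hens, changed them little. Hen 2 was then highest in 2336 genes by scaled FPKM and in 2302 by scaled counts. Nuclear counts scaled to the same total in each hen (CPM), in place of FPKM as deposited, put hen 1 highest in 2965 genes and hen 2 in 1362, and moved the median over all genes of log2(hen / other hens) to 0.15 in hen 1 and to -0.15 in hen 2, from -0.05 and 0.04 by FPKM. Counts of list members by hen were therefore made by FPKM and by CPM, and both are given for some of the lists where the leading hen changed.

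**Figure D3:**
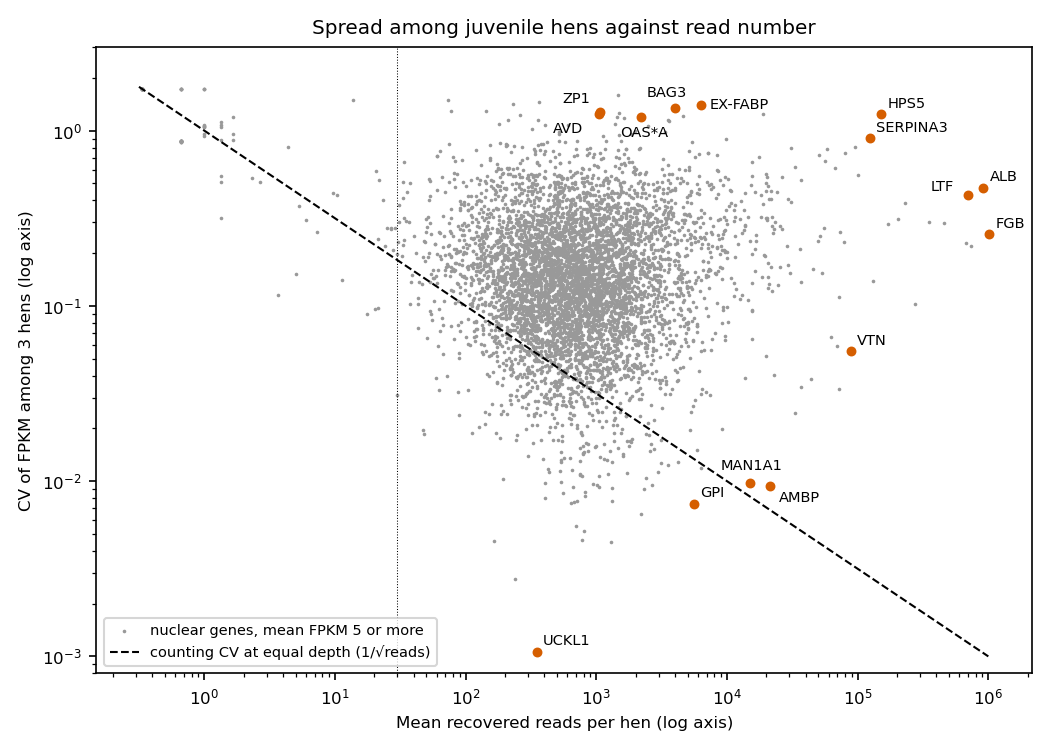
CV of FPKM among 3 juvenile hens against the mean number of recovered reads per hen, both on log axes, for nuclear genes with a mean of 5 FPKM or more (grey points), with named genes in orange, the counting CV as a dashed line and 30 reads as a dotted line. Of the 5728 genes, 493 lie below their counting CV, and HPS5 (CV 1.24, mean of 151918 reads) and SERPINA3 (CV 0.908, mean of 124107 reads) stand out at the upper right.

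The 20 largest CVs of all were tied at 1.73, the highest value that 3 hens allow, and each belonged to a gene above 0 in 1 hen only. All were genes of short structural or regulatory RNAs, such as the snoRNAs SNORA3 and SNORA28, the microRNA gga-let-7d, the spliceosomal U1 and 5S ribosomal RNA, and none had more than 3 reads, too few to describe a spread among hens. The most variable genes were therefore taken from the 5653 genes with a mean of at least 30 reads, a limit chosen after the values were seen. Of these, 28 had a CV of 1 or more.

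By FPKM, hen 2 was highest in 10 of the 20 most variable genes, near its 42.5% of all genes. The counts for hens 3 and 1 below are near their FPKM shares too, so on this scale the counts do not set these genes apart. By CPM the shares of all genes differ, with 23.8% for hen 2, 24.5% for hen 3 and 51.8% for hen 1. The 20 genes were not counted by hen on that scale. First by CV was ENSGALG00000023818, with no name or description, on chromosome 27 at 4835440-4835971, with 14.7, 509 and 14.8 FPKM. EX-FABP, a secreted lipocalin of chicken described in the table as LCN8 that binds fatty acids and bacterial siderophores, had 43.3, 899.6 and 89.4 FPKM. BAG3, a co-chaperone of HSP70, had 5.94, 109 and 12.8 FPKM. In each of the 3 genes hen 2 was far above both other hens. HSP70, a stress-induced cytosolic chaperone described as HSPA2, had 69.7, 775 and 111 FPKM, and serum amyloid A was among the 20 as well. MIP-3ALPHA, the chemokine CCL20 that attracts immature dendritic cells and lymphocytes, had 0.722, 12.98 and 1.93 FPKM. RBPJL, a transcription factor known from acinar cells of the mouse pancreas, had 0.149, 21.2 and 2.44 FPKM, with hen 3 between the other hens. All of these were lowest in hen 1. SLC6A14, a transporter of neutral and basic amino acids, had 3.31, 90.4 and 17.9 FPKM. ACSBG2, an acyl-CoA synthetase, had 10.7, 103 and 15.4 FPKM. FAM150B, a secreted ligand of a receptor tyrosine kinase in human, had 0.887, 13.2 and 1.80 FPKM. MIP-3ALPHA, RBPJL and FAM150B passed the level of 5 FPKM only through hen 2, since both other hens were below it. Some genes led by hens 3 and 1 below likewise passed it through their leading hen alone.

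Hen 3 was highest in 6 of the 20, against 31% of all genes. OAS*A, a 2'-5'-oligoadenylate synthetase of the antiviral response, had 25.96, 19.7 and 178 FPKM. ATP6V0D2, a subunit of the proton pump of acidic organelles, had 1.78, 1.78 and 14.8 FPKM. AVD, the biotin-binding avidin of egg white, had 61.7, 0.0815 and 245 FPKM with 1 read in hen 2 against 604 and 2550 reads in hens 1 and 3. In OAS*A and ATP6V0D2 hens 1 and 2 were alike, and in AVD all hens differed. The other 3 were described as uncharacterized proteins. ENSGALG00000000443 had 1.64, 0 and 16.0 FPKM. ENSGALG00000026793 had 10.5, 6.68 and 65.7 FPKM. ENSGALG00000006384 had 29.4, 28.2 and 199.7 FPKM. Hen 3 was more than 5-fold above the next hen in each.

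Hen 1 was highest in the remaining 4 of the 20, against 26.5% of all genes, and 3 of the 4 are given. ZP1, an egg coat glycoprotein that the liver of birds makes and sends to the ovary, had 51.2, 2.13 and 8.87 FPKM. ANGPTL4, a secreted inhibitor of lipoprotein lipase, had 13.3, 0.234 and 3.96 FPKM. ENSGALG00000010018, an uncharacterized protein, had 28.1, 0.994 and 2.99 FPKM. In these genes hen 2 was lowest and hen 3 lay between.

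**Figure D4:**
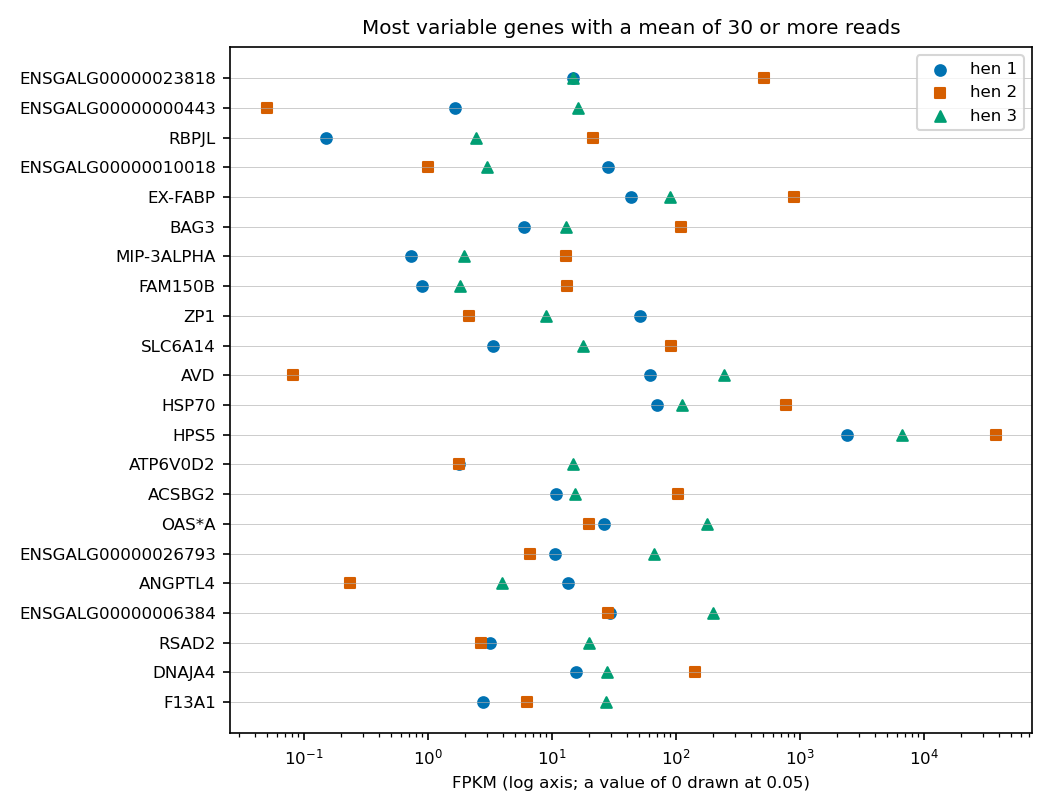
FPKM on a log axis of nuclear genes that had the largest CVs among juvenile hens and a mean of 30 or more reads (the first 20 other than 1 not shown, with RSAD2, DNAJA4 and F13A1, which rank next), with 1 marker per hen. Hen 2 lies far to the right for EX-FABP, BAG3 and HPS5, hen 3 for OAS*A and RSAD2, and hen 1 for ZP1 and ANGPTL4.

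All 5 measured genes of the acute phase list with a mean of 5 FPKM or more were highest in hen 2, against 42.5% of all genes. Their median CV was 0.533. They were serum amyloid A, orosomucoid, PIT 54, EX-FABP and SAAL1, which had 6.88, 15.2 and 6.18 FPKM. SAAL1 is like serum amyloid A by name only and overlaps its locus. Without strand the 2 genes cannot be separated, so SAAL1 is not a separate case in this count. The other members of the list, CD14, CRP and PTX3, were under 5 FPKM in every hen. The median over the 5 genes of log2(hen 2 / other hens) was 1.22. Ceruloplasmin (CP), a copper carrier of plasma in another list, was also highest in hen 2 with 332, 1507 and 618 FPKM. Hemopexin, also outside the acute phase list, was instead highest in hen 3, with 9306, 15967 and 17201 FPKM. Transthyretin (TTR), a thyroid hormone carrier, had 3197, 1279 and 1991 FPKM and was lowest in hen 2, as albumin was. AHSG, a plasma protein that limits calcification, had 459, 71.9 and 251 FPKM with the same order. Between hens 1 and 3, serum amyloid A differed 2.78-fold. The median CV of the list was 2.36 times that of all genes without hen 2, against 3.69 times with it. All 4 measured erythrocyte markers (HBAA, HBB, HBAD and SLC4A1) were highest in hen 2 too. Only 3 of them had a mean of 5 FPKM or more. These 3 were highest there by FPKM and by CPM, against 42.5% and 23.8% of all genes. The 4 markers had a summed level of 84.0, 185 and 46.3 FPKM. Of 7 heterophil markers above 5 FPKM, 4 were highest in hen 2 by FPKM, against 42.5% of all genes. By CPM 3 of the 7 were, against 23.8%, so these few markers hardly set hen 2 apart. The 9 measured heterophil markers had a summed level of 296, 462 and 239.9 FPKM. The granule enzyme MPO had 0.397, 0.207 and 0.0743 FPKM. The part of these cells in the values of hen 2 was not tested. In tissue RNA, fewer cells of a type and less RNA per cell cannot be told apart.

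Chaperones had a nearly uniform order of hens. Of 42 ER chaperones and translocation genes, 40 were highest in hen 2 and 40 were lowest in hen 1, against 42.5% and 40.1% of all genes. HSPA5 (BiP), the main Hsp70 of the ER, had 440.0, 2455 and 968 FPKM. HSP90B1 (GRP94), its Hsp90 partner, had 504, 1599 and 888 FPKM. Calreticulin (CALR), a lectin chaperone of glycoproteins, had 653, 1621 and 1046 FPKM. Hen 2 was more than 2-fold above hen 1 in each. Protein disulfide isomerase (P4HB) had 326, 539.5 and 407 FPKM. HERPUD1, induced by misfolded protein in the ER, had 33.1, 123 and 55.9 FPKM. CRELD2, induced likewise, had 50.4, 175 and 94.4 FPKM. The order hen 1, hen 3, hen 2 held in every one of these. The smallest spread in the list belonged to DDOST, a subunit of the oligosaccharyl transferase, with 82.1, 108 and 104 FPKM. CPM gave nearly the same result, with 39 of 42 highest in hen 2, against 23.8% of all genes.

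Heat shock proteins followed, with 25 of 27 highest in hen 2 on either scale, against 42.5% of all genes by FPKM and 23.8% by CPM, and a median CV of 0.351. HSP90AA1, the inducible cytosolic Hsp90, had 257, 1392 and 579 FPKM. HSPA8, the constitutive Hsp70, had 166, 765 and 339 FPKM. DNAJA4, a J-domain partner of Hsp70, had 15.7, 142 and 27.5 FPKM. In these cytosolic chaperones hen 2 was more than 2-fold above both other hens. By contrast HSPE1, the mitochondrial Hsp10, was level at 213, 212 and 223 FPKM.

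Interferon response genes marked hen 3. Of 32 genes above 5 FPKM, 29 were highest in hen 3, against 31% of all genes, and 14 of them were at least 2-fold above both other hens, against 1.08% of all genes. Their median CV was 0.492, and the median of log2(hen 3 / other hens) was 1.02. By CPM, 28 of the 32 were highest in hen 3, against 24.5% of all genes. Without the level filter, the 37 measured genes of the list took 0.245%, 0.203% and 0.479% of counts. LY6E, an interferon-induced surface protein, had 805, 908 and 1751 FPKM. ISG12(2), an interferon-induced protein of small size, had 169, 119 and 434 FPKM. RSAD2 (viperin), an antiviral effector, had 3.17, 2.67 and 19.9 FPKM. In these genes hen 3 was above both other hens. MX, an antiviral GTPase, had 4.97, 2.56 and 15.0 FPKM. Members such as RSAD2 and MX were above 5 FPKM in hen 3 only. The filter is a mean over the hens, so it let them in through hen 3, which favours hen 3 in the counts. IFIH1 (MDA5), the cytosolic sensor of double-stranded RNA, had 8.23, 7.28 and 17.9 FPKM. The genes named so far thus shared hen 3 as the highest, while the order of hens 1 and 2 differed among them. The exceptions were 3 genes. IFI27L2 was highest in hen 1 with 112, 76.7 and 75.8 FPKM. SOCS1, a feedback inhibitor of cytokine signals, was highest in hen 2 with 8.39, 33.6 and 26.4 FPKM. The chemokine CCL19 was also highest in hen 2, with 5.49, 28.4 and 9.67 FPKM.

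All 8 markers of macrophages and Kupffer cells were also highest in hen 3, against 31% of all genes, with a summed level of 723, 708 and 1042 FPKM and none at 0. MARCO, a scavenger receptor of these cells, had 118, 125 and 185 FPKM. The ratio of hen 3 to the next hen lay between 1.10 (VSIG4) and 1.63 (C1QB) over the 8 markers. The part of these cells in the level of interferon genes was not tested. Of 3 T and NK cell markers above 5 FPKM, CD3D and CD3E were highest in hen 1 and IL7R in hen 3. Of all genes, 26.5% and 31% were highest in these hens, and 3 markers are too few to compare. The 12 measured had a summed level of 53.5, 50.97 and 46.4 FPKM. Leaving out hen 3 took the median CV of the interferon list from 3.40 to 1.15 times that of all genes. Most members were highest in hen 3, and some passed the filter only through it. A drop had to follow, so it is not a separate result.

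Genes of fat transport and oxidation were low in hen 2. None of 16 apolipoproteins and lipoprotein remodelling genes was highest in hen 2, against 42.5% of all genes, and 14 were lowest there, against 34.6%. APOAIV, a protein of intestinal and liver lipoproteins, had 1546, 562 and 2441 FPKM. APOA5, which promotes triglyceride clearance, had 72.6, 20.7 and 149 FPKM. APOB, the structural protein of VLDL, had 202, 126 and 174 FPKM. APOH (beta-2-glycoprotein) was steady, at 586, 527 and 584 FPKM.

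Of 31 genes of fatty acid oxidation and ketogenesis, 25 were lowest in hen 2 and 2 were highest there, against 34.6% and 42.5% of all genes. CPT1A, the gate of fatty acids into mitochondria, had 83.5, 20.0 and 88.9 FPKM. In CPT1A hens 1 and 3 were close, and hen 2 was far below. Other steps hardly varied, such as the electron carrier ETFA with 32.3, 31.7 and 31.4 FPKM. PPAR, described as peroxisome proliferator-activated receptor alpha, the fatty acid sensor that induces this pathway in mammals, had 28.7, 25.8 and 29.1 FPKM. By CPM, 29 of the 31 were lowest in hen 2, against 54.5% of all genes. Without hen 2 the median CV of the list was 0.575 times that of all genes, against 1.18 times with it.

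Fatty acid and triglyceride synthesis had no single order of hens, but by FPKM the list leaned to hen 1. Of 29 genes above 5 FPKM, 14 were highest in hen 1, 8 in hen 2 and 7 in hen 3. The shares of all genes were 26.5%, 42.5% and 31%. By CPM 18 of the 29 were highest in hen 1, against 51.8% of all genes, so on that scale the count hardly sets the list apart. THRSP (ENSGALG00000017267), the thyroid hormone responsive protein of lipogenic tissue, had 386, 134 and 234 FPKM and was highest in hen 1. FASN, fatty acid synthase, had 29.5, 98.2 and 39.9 FPKM and was highest in hen 2. ACL (ATP-citrate lyase), which supplies acetyl-CoA, was level at 109.6, 106 and 96.2 FPKM. These genes of one pathway thus had different orders of hens. In sterol synthesis, HMGCS1, which makes HMG-CoA in the cytosol, had 464, 222 and 577 FPKM and was lowest in hen 2. The squalene synthase FDFT1 had 9.01, 26.4 and 6.20 FPKM and was highest in hen 2.

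Glucose metabolism held both some of the steadiest and some of the most variable genes. GPI, the glucose-6-phosphate isomerase, had 113, 114 and 113 FPKM. PGK1, phosphoglycerate kinase, had 136, 134 and 138 FPKM. PCK1, the cytosolic enzyme of gluconeogenesis, had 8.20, 0.0733 and 9.69 FPKM, lowest in hen 2 with only 5 reads. UGP2, which makes UDP-glucose for glycogen, had 78.3, 288 and 97.9 FPKM. PPP1R3C, a glycogen-targeting subunit of protein phosphatase 1, had 84.5, 40.7 and 15.9 FPKM and was lowest in hen 3.

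Of 65 genes of amino acid catabolism and uric acid synthesis, 39 were lowest in hen 2, against 34.6% of all genes. By CPM 46 of the 65 were lowest there, against 54.5% of all genes. PURH (ATIC), which closes the purine ring, had 1227, 395 and 771 FPKM. BHMT, which remethylates homocysteine, had 84.2, 8.32 and 57.8 FPKM. Both had the order hen 1, hen 3, hen 2 from high to low. CTH, cystathionine lyase, was steady at 62.3, 59.7 and 61.7 FPKM. MAT1A, which makes S-adenosylmethionine, had 452, 638 and 538 FPKM and was highest in hen 2.

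Cytochrome P450 and conjugation enzymes were highest in hen 2 for 1 of 31 genes, against 42.5% of all genes, and highest in hen 1 for 20, against 26.5%. CYP3A7, described as CYP3A37, had 572, 229 and 731 FPKM. CYP4B1 had 177, 20.8 and 131 FPKM. FMO6P, described in the table as a flavin monooxygenase pseudogene, had 445, 39.8 and 196 FPKM. CYP2H1, a phenobarbital-inducible P450 of chicken, was highest in hen 3 with 31.1, 19.8 and 74.8 FPKM. Hen 2 was lowest in all of these, while the highest hen differed. CYP39A1, an oxysterol hydroxylase, was steady with 36.8, 35.5 and 39.5 FPKM.

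**Figure D5:**
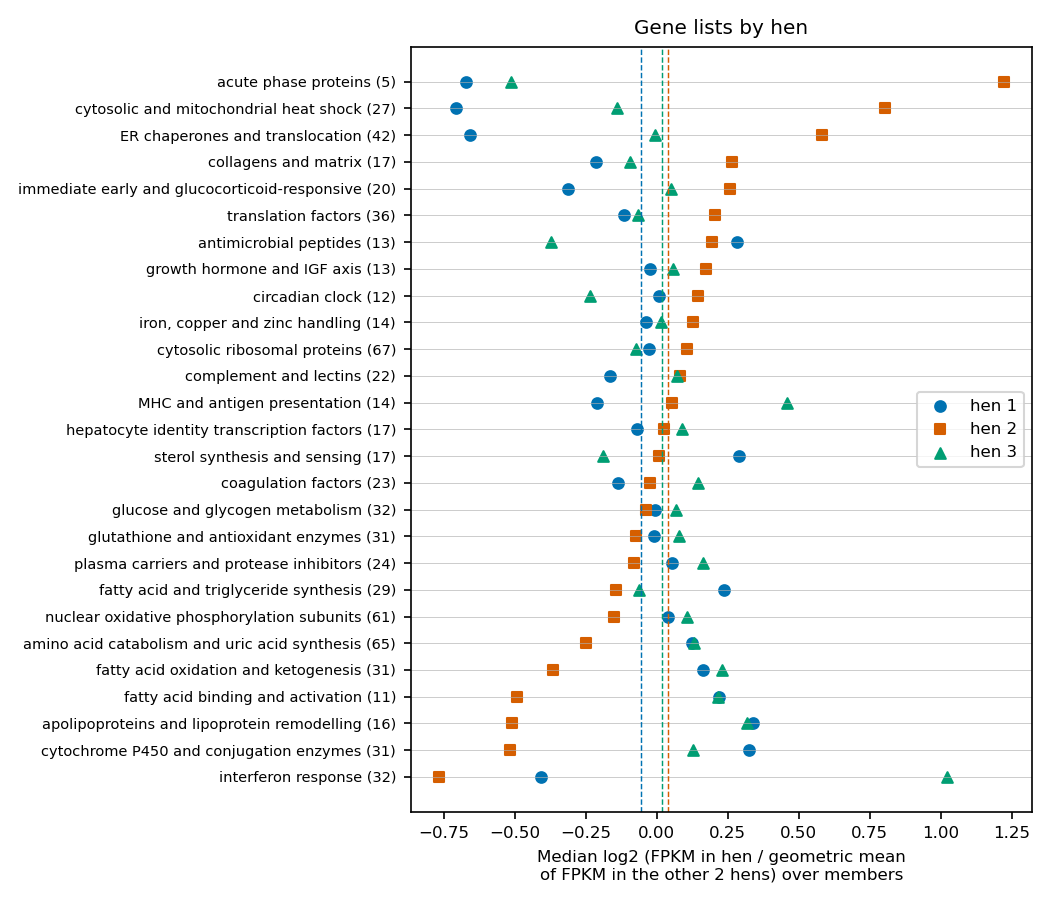
Median over list members of log2(FPKM in a hen / geometric mean of the other 2 hens), for lists with at least 5 genes of 5 FPKM or more (number in brackets), with 1 marker per hen and dashed lines for the median of all genes. Acute phase, heat shock and ER chaperone lists lie to the right in hen 2, the interferon list in hen 3, and apolipoproteins and P450 enzymes to the left in hen 2.

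The list of yolk precursors and estrogen-induced carriers was uneven, and not all members were low against other genes of juvenile liver. Apovitellenin-1 and avidin had means of 100.7 and 102.3 FPKM, and 441 of 14061 nuclear genes had a mean of 100 FPKM or more. Avidin, an egg white protein, is also among the oviduct and ovary markers used here, so its level need not stand for yolk precursors. The vitellogenins were low. Apovitellenin-1 (APOVLDLII), the estrogen-induced protein of yolk VLDL, had 188, 12.8 and 100.83 FPKM. VTG2, the major vitellogenin, had 8.21, 2.13 and 1.13 FPKM. VTG1, a minor vitellogenin named TPRXL in the table, had 0.535, 0.710 and 0.466 FPKM. Hen 1 was thus highest for APOVLDLII and VTG2 as well as for ZP1. ESR1, the estrogen receptor alpha, had 9.25, 3.86 and 9.93 FPKM and was lowest in hen 2. Avidin followed a different order from apovitellenin-1, highest in hen 3.

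Ribosomal, respiratory and translation lists had the smallest median CVs of the lists with at least 5 genes above 5 FPKM. The 67 cytosolic ribosomal proteins above 5 FPKM had a median CV of 0.0649, against 0.145 for all genes. RPL7 of the large subunit had 245, 244 and 239.5 FPKM. RPLP0, of the ribosomal stalk, had the largest CV of the list with 209, 454 and 225 FPKM. By FPKM 46 of the 67 were highest in hen 2, against 42.5% of all genes. By CPM 59 of the 67 were highest in hen 1, against 51.8%, so their order of hens turned on that scale. Median-ratio scaled FPKM kept 43 of the 67 highest in hen 2, against 2336 of all 5728 genes. The 61 nuclear subunits of oxidative phosphorylation had a median CV of 0.0942. By FPKM 43 of the 61 were lowest in hen 2, against 34.6% of all genes, and by CPM 57 of the 61, against 54.5%. Their leading hen was hen 3 by FPKM (35 of the 61, against 31% of all genes). By CPM it was hen 1 (51 of the 61, above the 51.8% of all genes). UQCRC1 of complex III had 82.9, 82.3 and 80.3 FPKM. The 36 translation factors had a median CV of 0.107, with EIF3I at 54.7, 53.5 and 54.3 FPKM. Their leading hen was hen 2 by FPKM (23 of the 36, against 42.5% of all genes). By CPM it was hen 1 (19 of the 36, near the 51.8% of all genes).

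Coagulation factors had a median CV of 0.143 and complement with lectins 0.158, near that of all genes. Prothrombin (F2) had 435, 449 and 419 FPKM and was nearly level. Kininogen (KNG1), the source of bradykinin, had 569.8, 566 and 592 FPKM. F13A1, the transglutaminase subunit of factor XIII, had 2.78, 6.31 and 27.2 FPKM and was highest in hen 3. F13A1 is also a thrombocyte marker, and another of these, ITGA2B, had 1.16, 1.08 and 0.735 FPKM with no such order. F13A1 was the 1 of 23 coagulation factors with a CV of 0.5 or more, a share near the 6.11% of all genes. The growth hormone receptor (ENSGALG00000014855, GHR) had 118, 91.7 and 122 FPKM. IGFBP1, a binding protein induced in fasting, had 11.4, 3.31 and 20.3 FPKM and was lowest in hen 2. Among clock genes, NFIL3, a repressor of the output limb, had 14.7, 38.2 and 17.8 FPKM. Of 12 clock genes above 5 FPKM, 6 were highest in hen 2 by FPKM, near the 42.5% of all genes. By CPM 5 of the 12 were highest in hen 2, against 23.8% of all genes, and 6 in hen 1, near the 51.8%. Cell cycle genes were scarce, with 4 of 46 above 5 FPKM, the highest being PCNA, a clamp of replicating DNA, with 24.2, 17.3 and 21.6 FPKM.

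None of the 17 liver transcription factors above 5 FPKM reached a CV of 0.5, which 6.11% of all genes did, so the count does not set them apart. CEBPB, which drives acute phase genes, had 68.6, 156 and 135 FPKM. LXR (NR1H3), the oxysterol receptor, had 58.9, 64.9 and 75.7 FPKM. RXRA, its partner, had 17.7, 20.0 and 19.5 FPKM. CEBPB was thus lowest in hen 1, and both receptors varied less. NR0B2, a repressor induced by the bile acid receptor FXR, had 19.0, 10.7 and 29.9 FPKM. FXR itself had 28.9, 45.2 and 34.7 FPKM, with a different order of hens.

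Antioxidant and metal handling genes had mixed orders. GPX3, a secreted glutathione peroxidase, had 799.6, 1489 and 1136 FPKM and was highest in hen 2. The zinc importer SLC39A14 had 41.6, 92.8 and 64.2 FPKM and was highest in hen 2. SLC40A1 (ferroportin), the iron exporter, was steady at 108, 97.4 and 101.02 FPKM. Of 13 antimicrobial peptides above 5 FPKM, 9 were lowest in hen 3, against 25.2% of all genes. Only 3 were lowest in hen 2, against 34.6%. The antimicrobial defensin GAL10 had 481, 216 and 578 FPKM and was among those lowest in hen 2. The liver peptide LEAP2 had 175, 161 and 145 FPKM and differed little.

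The 20 smallest CVs ran from 0.00106 for UCKL1 to 0.00923 for RCN2. UCKL1, described in the table as ZNF512B, had 8.17, 8.15 and 8.17 FPKM. ROMO1, a small protein of the inner mitochondrial membrane, had 114, 115 and 114 FPKM. SNX4, a nexin that sorts endosomal cargo, had 9.66, 9.66 and 9.58 FPKM. The 3 hens were thus nearly the same in these genes. PFN2, an actin-binding profilin, had 60.4, 60.4 and 59.8 FPKM. The 20 also included the sorting nexin SNX6, the scaffold SPAG9, the kinases WNK1 and RPS6KA3, the transporter ABCC6, the nuclear membrane protein SUN2 and GPI. They had a mean of 165 to 5572 reads and a counting CV of 0.0134 to 0.0781. All 20 therefore lay below their own counting CV, as did 493 of the 5728 genes (8.61%), and their spread cannot be told apart from counting error.

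Among the 131 genes with at least 10000 reads on average, the steadiest was AMBP, the precursor of alpha-1-microglobulin and bikunin, with 801, 787 and 798 FPKM and a CV of 0.00941. MAN1A1, a mannosidase of the Golgi, had 127, 128 and 129 FPKM, and KNG1, the unnamed ENSGALG00000017040 and F2 followed. GC, the vitamin D binding protein of plasma, had 1464, 1429 and 1540.4 FPKM. All of these were close among the hens. EEF2, an elongation factor, had 244, 263 and 270.2 FPKM. Beta-actin, which the table names gga-mir-3533, had 626, 579.5 and 616 FPKM. GAPDH, often used as a reference gene, had 923, 766 and 972 FPKM, a CV of 0.121. Beta-actin, with a CV of 0.0402, was steadier than GAPDH, a description of 3 hens with no test. The limit of 10000 reads was chosen after the values were seen, and none of the first 20 genes lay below its counting CV.

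The laying hens gave a view of these genes in libraries that the choice did not use. Of the 20 genes with the largest CV among juvenile hens and 30 or more reads, 15 reached a mean of 5 FPKM and 30 reads among the 3 laying hens, and their median CV there was 0.812, against 0.142 for all 5178 genes that passed in both groups. For the 200 largest, 155 passed, with a median CV of 0.462. For the 200 smallest, 192 passed, with a median CV of 0.0978. Serum amyloid A (HPS5) had a CV of 1.24 among laying hens, at a mean of 494 FPKM. ANGPTL4 had a CV of 1.44 there, at a mean of 14.9 FPKM. ZP1, in contrast, had a CV of 0.0866 at 458 FPKM, and ENSGALG00000010018 one of 0.0427 at 1024 FPKM. Among juvenile hens the means of these 4 genes were 15570, 5.85, 20.7 and 10.7 FPKM. The CVs of the 2 groups thus stand at unlike levels. Thus some of the genes that varied most among juvenile hens varied among laying hens too, and others did not.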

How the data were processed

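Liver RNA of 6 hens of the Lushi chicken (Lushi green shell chicken in the methods) was extracted with TRIzol from frozen tissue and sequenced on an Illumina instrument, with 1 library per hen and a kit that does not mark strand, so that overlapping and antisense genes cannot be separated. Per the labels and the methods of the study, the authors used CASAVA 1.8.2, aligned reads to galGal4 with TopHat2 2.0.9 and obtained FPKM with Cufflinks and Cuffdiff. The deposited count columns hold a signal that the authors scaled by 1 factor per library. The methods name HTSeq for counting reads per gene, and do not state whether these columns came from it or from Cuffdiff. Whole reads were recovered by dividing by the value of 1 read: 99.9%, 99.9% and 99.8% of low values came out whole within 0.02, and 2 values in hen 3 lay below 0.5 of 1 read. Large counts were deposited with 3 digits.

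Here the share of counts per gene class, the rank by mean FPKM, the CV of FPKM among the 3 hens (nuclear genes, mean of 5 FPKM or more), and edgeR 4.0.16 dispersions were computed with R 4.3.3, Python 3.11.15, pandas 2.3.3 and numpy 2.4.6. The counting CV is that expected from the reads alone. No p-value was computed. At this depth the widest 95% Wilson interval of a share was 0.0496 percentage points, for counting error only. The scripts were tested on simulated data. The members and lists were chosen with earlier results of these data known. Of 1319 list names, 971 were found as deposited and 1054 with names and synonyms from a RefSeq gene table. Named genes were the 20 most abundant, the 20 with the largest and the 20 with the smallest CV, and in each list up to 4 of the highest level, 3 of the largest and 2 of the smallest CV, and any regulator. AHSG, CCL19, CD14, CRP, CYP19A1, IFIH1, ITGA2B, MPO, PPAR, PTX3, SLC4A1, SOCS1, TPRXL, VTG2, and the mitochondrial genes fall outside this rule and were chosen after their values were seen. Some genes of these lists are not reported here. Alternatives were other filters on FPKM, other scalings, log values, dispersions and leaving out each hen.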

Additional observations from a re-analysis of the deposited data

How the results depend on the processing

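No paired analysis was possible because the results come from no test between groups and the replicate numbers do not mark shared animals. Under settings other than leaving out a hen, 151 values stayed near the reported one and 61 moved; the cause was not tested. Settings that needed 30 or 10000 reads, took off the counting CV, matched names as deposited or left out 1 mitochondrial feature were chosen after seeing the data.

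As shares of summed FPKM, which weighs short genes more, the mitochondrial genome took 38.5%, or 27.9% without the feature ENSGALG00000018375 with its 5, 1 and 1 reads, plasma carriers and protease inhibitors 7.71%, coagulation factors 6.15%, ER chaperones 1.31% and fatty acid oxidation 0.592%. With names as deposited, plasma carriers took 9.91% and acute phase proteins 1.13% of counts. The median CV was 0.200 with no filter on FPKM, 0.209 as edgeR's tagwise biological CV and 0.273 at 10000 or more reads. Genes with a CV of 0.5 or more numbered 645 at 1 FPKM or more, 168 at 20 FPKM or more, 2636 with no filter, 110 by edgeR's tagwise value and 21 at 10000 or more reads.

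Of the 20 largest CVs, none (0) was shared with no filter, by edgeR or at 30 or more reads, 5 with the counting CV taken off and 10 on either log scale. Of the 20 smallest, 13 were shared at 1 FPKM or with no filter, 6 at 20 FPKM and with median-ratio scaling, 3 by edgeR, and 0 by CPM (nuclear counts scaled to the same total) or at 10000 reads. Of the 20 most variable with 30 or more reads, 9 were shared at 1 FPKM, 12 at 20 FPKM, 6 with no filter, and 12 and 13 as the SD of log2(FPKM + 1) and log2(FPKM + 0.1).

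The median CV of a list over that of all genes moved as follows. By edgeR's tagwise value it was 1.76 for acute phase proteins, 1.39 for heat shock proteins, 1.57 for plasma carriers, 1.32 for P450 enzymes, 1.00 for ribosomal proteins, 0.948 for oxidative phosphorylation and 1.27 for coagulation factors. With no filter it was 1.58 for plasma carriers, 1.504 for P450 enzymes, 0.475 for oxidative phosphorylation and 0.813 for complement. By CPM it was 2.22 for P450 enzymes, 0.611 for ribosomal proteins, 0.878 for oxidative phosphorylation and 0.905 for complement. At 20 FPKM it was 4.93 for acute phase proteins and 2.13 for P450 enzymes, which stood at 1.77 at 1 FPKM, 1.99 and 2.01 on the log scales with 1 and 0.1 added, and 1.99 with the counting CV taken off. Pearson r of hens 1 and 2, 1 and 3, and 2 and 3 was 0.82, 0.84 and 0.83 with 0.1 added, and 0.92, 0.94 and 0.93 at 1 FPKM or more.

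Leaving out 1 hen gave a median CV of 0.0930 to 0.137, 202 to 471 genes with a CV of 0.5 or more, and a common biological CV of 0.196 to 0.294. It kept 6 to 11 of the 20 largest CVs, 1 to 3 of the 20 smallest and 9 to 15 of the most variable with 30 or more reads. List ratios ran from 2.36 to 4.63 for acute phase proteins, 1.65 to 2.81 for ER chaperones, 1.81 to 3.41 for heat shock proteins, 1.15 to 5.14 for interferon response, 2.26 to 2.91 for plasma carriers, 1.54 to 2.94 for apolipoproteins, 0.575 to 1.38 for fatty acid oxidation, 1.91 to 2.099 for P450 enzymes, 0.365 to 0.618 for ribosomal proteins, 0.543 to 0.638 for oxidative phosphorylation, 0.845 to 1.32 for coagulation factors and 0.993 to 1.32 for complement.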

Other observations

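Some genes outside the lists were chosen after their values were seen. ASNS, which makes asparagine, had 5.96, 32.6 and 10.3 FPKM. ALDH18A1, the first enzyme of proline synthesis, had 7.17, 37.4 and 8.88 FPKM. In both genes hen 2 was more than 2-fold above the other hens. CHAC1, which degrades glutathione, had 4.47, 16.7 and 1.97 FPKM. YFV (ENSGALG00000024340), an MHC-like gene of the Y region, was lowest in hen 1, with 3.36 FPKM against 23.5 and 12.4 FPKM in hens 2 and 3.

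Among the 200 most variable genes with 30 or more reads, 17 pairs lay within 50 kb of each other, and 13 of them were highest in the same hen. EX-FABP and PTGDS, lipocalins on chromosome 17, were both highest in hen 2, with PTGDS at 40.1, 295 and 77.9 FPKM. On chromosome 3, CMPK2 at 11.7, 12.3 and 41.8 FPKM lies beside RSAD2, and both were highest in hen 3. SERPINA5 and SERPINA3 on chromosome 5 had opposite leaders, with SERPINA5 at 62.5, 12.9 and 15.2 FPKM. No comparison with other pairs of genes was made.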
